A study of Mus musculus with 2 samples.

Results

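Transcription factors that set or hold the identity of lung epithelial cells were described across the alveolar and airway cells of bleomycin-injured mouse lung. The 10 genes were *Nkx2-1*, *Foxa1*, *Foxa2*, *Sox2*, *Sox9*, *Gata6*, *Cebpa*, *Etv5*, *Klf5* and *Foxj1*. They were taken by symbol from the gene list that both count matrices share, as 10 of 31053 genes, by a rule that uses no measured value, although earlier results of these data were known when they were chosen. All 10 had UMIs (unique molecular identifiers, counted once per captured RNA molecule) in both libraries. The series asks how loss of *Pclaf*, a PCNA-binding factor of proliferating cells, affects regeneration of the injured lung. Both libraries came from mice aged 8 to 10 weeks, 1 week after bleomycin (1.35 U/kg), a drug that injures the alveoli. They were described as lung cells sorted as Cd31-, Cd45- and Epcam+. The first group was labelled *Pclaf* WT and the second *Pclaf* KO, a previously established knockout line, and bleomycin was given to both. No untreated lung was analysed here. Each genotype had 1 library, and the number of mice pooled in it is not given in the sources used here. No test between genotypes was therefore possible, and every interval is a 95% interval that covers counting error only.

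Cells were assigned to classes by marker genes, and none of the 10 factors was among those markers. A class name such as alveolar type 2 (AT2) therefore stands for cells that carry those markers, that is AT2-like cells. The gates gave, in the WT-labelled and the KO-labelled library, 530 and 4979 AT2 cells, 148 and 1286 activated AT2 cells (AT2 markers with *Lcn2*, *Lrg1*, *Orm1* and *Il33*), 141 and 549 Krt8+ transitional cells, 107 and 304 alveolar type 1 (AT1) cells, 13 and 140 cells with both AT2 and AT1 markers, and 27 and 181 cycling alveolar cells. Of airway cells they gave 119 and 456 club, 153 and 968 ciliated, 6 and 76 basal, 4 and 35 goblet and 6 and 38 neuroendocrine cells. The gated classes carried their defining genes: *Krt8* was at 1602 and 1714 CPM in Krt8+ cells, *Mki67* at 424 and 495 CPM in cycling cells and *Tmem212* at 1433 and 1633 CPM in ciliated cells. Classes of fewer than 20 cells were not ordered. The libraries shared 138 kept barcodes, of which 6 WT-labelled and 81 KO-labelled ones were gated epithelial. Of the gated goblet cells, 0 lay in clusters of that name, so that class rests on the gate alone. Clusters were named by the same marker scores that set the gates, so they are no separate support, and they matched other classes in part. Of Krt8+ cells 41.8% and 64.7% lay in clusters of that name, and of AT1 cells 38.3% and 63.8%. Of AT2 cells it was 74.5% and 94.4%. No cluster was named for cycling cells, of which 48.1% and 95.6% lay in clusters named for an alveolar class.

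The libraries differed in more than genotype. They held 98171818 and 111267567 UMIs over 30669 and 17172 barcodes, and the gates called 4.15% and 57.6% of the kept cells epithelial. The gates called 15434 and 2831 cells non-epithelial, among them 7639 and 385 endothelial, 5774 and 198 immune and 1922 and 2108 mesenchymal cells. The counts of the WT-labelled library thus did not bear out the described sort, and those of the KO-labelled library bore it out only in part. *Pclaf* itself was at 6.75 CPM (UMIs per 1000000 UMIs of the class, 5.13 to 8.73) in gated epithelial cells of the WT-labelled library and at 4.32 CPM (3.86 to 4.82) in those of the KO-labelled library. In cycling alveolar cells it was at 110 CPM (69.5 to 164) and 105 CPM (90.8 to 121). The deleted part of the gene is not given in the sources used here, so a 3' readout may count RNA outside it, and the KO label was not borne out by this readout. The genotypes are therefore called WT-labelled and KO-labelled throughout. Of WT-labelled AT2, Krt8+, AT1 and cycling cells, 21.9%, 22%, 22.4% and 48.1% fell in non-epithelial clusters, against 2.21% or less of the same KO-labelled classes. The immune gene *Ptprc* was at 103.6 CPM in WT-labelled and 4.89 CPM in KO-labelled AT2 cells, and the AT2 gene *Sftpc* was at 298 and 4551 CPM in club cells.

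As background, NKX2-1 is the homeodomain factor that marks the lung lineage from its origin and, with the forkhead proteins FOXA1 and FOXA2, drives surfactant and secretoglobin genes. During lung development SOX9 marks the distal tips, whose cells become alveolar, and SOX2 the proximal tubes, whose cells become airway. ETV5, an ETS factor downstream of FGF signalling, and C/EBPα hold the AT2 state. GATA6 and KLF5 act in alveolar differentiation and repair, and FOXJ1 switches on the genes of motile cilia.

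The sequences upstream of 4 factors are shown because *Nkx2-1*, *Cebpa* and *Etv5* were more than 2-fold lower in Krt8+ transitional and club cells than in AT2 cells of both libraries, whereas *Foxa1* was within 2-fold. They are from RefSeq (GRCm38.p6), read 5′ to 3′ on the strand of the gene, with exonic bases of the gene left off. Capitals mark matches, on either strand, to any of 7 short motifs, each given with the share of 32851 promoter windows of 250 bases that held it. The forkhead motif TGTTTAC was in 3.17% of windows and the ETS motif CCGGAAG in 6.91%. The C/EBP motif TTNNGNAA was in 36.8% of windows and the NKX2-1 motif CTNAAG in 40%. The GATA motif AGATAA was in 9.99% of windows, the SOX motif ACAANG in 36.3% and the KLF motif CCNCNCCC in 45.9%. A sequence was found for 6 of the 10 factors (*Sox9*, *Gata6*, *Klf5* and *Foxj1* had no entry).
*Nkx2-1*, chr12:56536909-56537158, minus strand: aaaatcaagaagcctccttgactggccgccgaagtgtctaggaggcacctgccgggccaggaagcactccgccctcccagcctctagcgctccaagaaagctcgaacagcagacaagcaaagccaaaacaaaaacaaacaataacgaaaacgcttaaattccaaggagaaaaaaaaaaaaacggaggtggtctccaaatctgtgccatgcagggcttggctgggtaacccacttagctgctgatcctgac
*Cebpa*, chr7:35119043-35119292, plus strand: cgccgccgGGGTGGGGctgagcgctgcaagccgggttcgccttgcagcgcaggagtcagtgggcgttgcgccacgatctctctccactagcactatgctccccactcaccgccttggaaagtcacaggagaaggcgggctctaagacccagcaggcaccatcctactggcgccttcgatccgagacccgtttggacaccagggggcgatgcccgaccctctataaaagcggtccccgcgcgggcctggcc
*Etv5*, chr16:22439720-22439820, minus strand: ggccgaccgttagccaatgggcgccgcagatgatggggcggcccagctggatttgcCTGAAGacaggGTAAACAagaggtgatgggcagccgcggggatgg
*Foxa1*, chr12:57546122-57546361, minus strand: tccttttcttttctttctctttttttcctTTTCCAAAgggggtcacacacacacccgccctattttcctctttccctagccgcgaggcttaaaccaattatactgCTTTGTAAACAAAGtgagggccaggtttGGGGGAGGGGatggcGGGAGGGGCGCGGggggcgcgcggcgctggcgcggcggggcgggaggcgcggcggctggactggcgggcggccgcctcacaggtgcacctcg

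The 250 bases before the *Nkx2-1* start held no match to any of the 7 motifs. The *Cebpa* window held a single KLF match. The *Etv5* run, 101 bases that precede the longer annotated transcript, held an NKX2-1 match followed by a forkhead match. The window before another *Etv5* start, not shown, held neither of these and had 4 KLF matches. In the *Foxa1* run, which lies in an intron of a longer annotated transcript, a forkhead match was overlapped on both sides by SOX matches, and a C/EBP match and 4 KLF matches, as separate overlapping pairs, also occurred. These matches are letters only, and no binding was measured. The *Nkx2-1* window lies within the span of the antisense gene *Gm26973*, and the *Cebpa* window within that of the antisense gene *Gm45091*.

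*Nkx2-1* (ENSMUSG00000001496, chr12:56531958-56536908, minus strand) separated epithelial from other cells. Its level was 349 CPM (329 to 370) in WT-labelled and 341 CPM (335 to 347) in KO-labelled AT2 cells. Immune, endothelial, mesenchymal and mesothelial cells of both libraries stood between 0.85 and 9.85 CPM. After thinning to 1000 UMIs a cell, 33.9% of 528 WT-labelled and 29.4% of 4971 KO-labelled AT2 cells held a *Nkx2-1* UMI, against 0.209% of 6695 and 0.587% of 341 endothelial cells. Without thinning the shares were 82.3% and 87.5% in AT2 and 0.746% and 1.3% in endothelial cells, at median depths of 5482.5 and 7122 UMIs in AT2 and 2339 and 2408 UMIs in endothelial cells.

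Among epithelial classes, *Nkx2-1* was low in Krt8+ transitional cells, a state between AT2 and AT1 that appears in injured alveoli. The level there was 113 CPM (92.8 to 137) in the WT-labelled and 114 CPM (103 to 125) in the KO-labelled library, which is log2 -1.62 (-1.92 to -1.34) and -1.58 (-1.73 to -1.45) against AT2 cells of the same library. Club cells were at 129 and 117 CPM, with intervals that overlapped those of Krt8+ cells in both libraries. Ciliated cells lay higher, at 179 CPM (154 to 207) and 159 CPM (150 to 168). AT1 cells, in which *Nkx2-1* keeps the AT1 program, were at 255 CPM (212 to 304) and 311 CPM (286 to 338). Activated AT2 cells were close to AT2 cells, at log2 -0.082 (-0.26 to 0.093) and -0.054 (-0.11 to -0.0022). The second ratio had an interval clear of 0, but TMM, an alternative scaling, turned it to 0.054 (0.0022 to 0.11). The highest ordered class was that of KO-labelled cells with both AT2 and AT1 markers, at 435 CPM (399 to 473), whose interval overlapped that of cycling alveolar cells at 376 CPM (349 to 404). Lowest of all was the KO-labelled goblet gate at 59.3 CPM.

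The forkhead pioneer factors *Foxa1* (ENSMUSG00000035451, chr12:57540628-57546916, minus strand) and *Foxa2* (ENSMUSG00000037025, chr2:148042877-148046969, minus strand) did not share this dip. *Foxa1* was at 51.9 CPM (38.4 to 68.6) and 46.3 CPM (39.7 to 53.7) in Krt8+ cells against 37.2 CPM (30.9 to 44.5) and 38.2 CPM (36.2 to 40.2) in AT2 cells. *Foxa2* was at 76.2 CPM (59.6 to 96) and 75 CPM (66.5 to 84.2) in Krt8+ cells against 54.9 CPM (47.1 to 63.6) and 61.5 CPM (59 to 64.1) in AT2 cells. These differences were small, at log2 0.28 to 0.48 for the pair, and in the KO-labelled library TMM scaling turned them to -0.33 for *Foxa1* and -0.32 for *Foxa2*. The *Nkx2-1* ratio of that library lay between -2.19 and -1.56 under the 14 alternatives run.

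The forkhead genes parted in other classes. *Foxa2* was at 86.4 CPM (62.3 to 117) and 130 CPM (114 to 148) in AT1 cells, above the AT2 level, whereas *Foxa1* in AT1 cells stayed near the AT2 level at 30.9 and 28 CPM. In ciliated cells both were above AT2, with *Foxa1* at 66.3 and 65 CPM and *Foxa2* at 162 CPM (138 to 189) and 119 CPM (111 to 127). The sharpest contrast was in KO-labelled basal cells, the airway stem cells that carry *Krt5* and *Trp63*. There *Foxa1* was at 154 CPM (122 to 192), with UMIs in 43 of 76 cells, while *Foxa2* had 0 UMIs among 525324, so that a level of 5.71 CPM (3 UMIs) could have been missed. The 6 WT-labelled basal cells held 8 *Foxa1* UMIs and 0 *Foxa2* UMIs. KO-labelled neuroendocrine cells, by contrast, held both, at 138 CPM of *Foxa1* and 156 CPM of *Foxa2*.

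**Figure D1:**
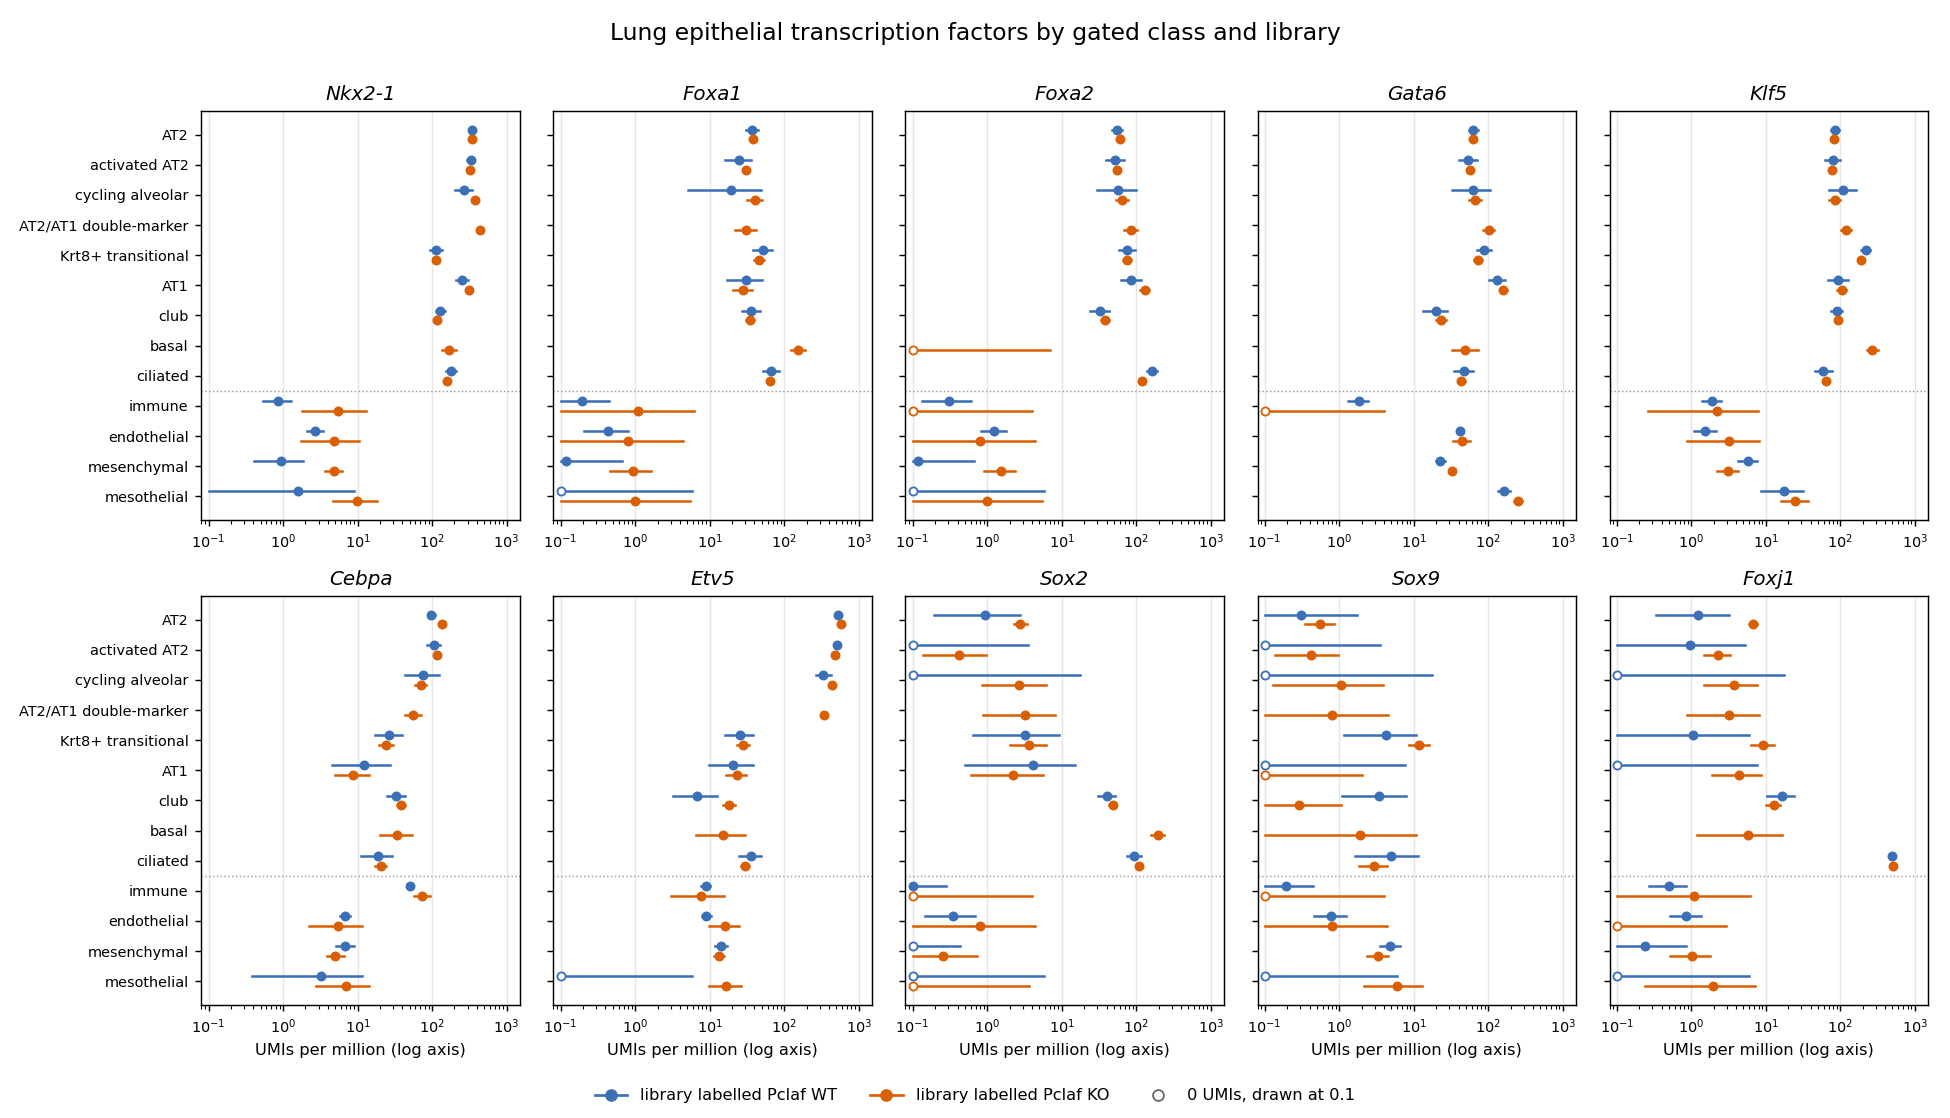
Level of each factor (CPM, log axis) in 13 marker classes (goblet and neuroendocrine cells are not drawn, and the fourth row holds cells with both AT2 and AT1 markers) of the WT-labelled and the KO-labelled library. Points are CPM of summed UMIs, lines are exact Poisson 95% intervals, open symbols mark 0 UMIs, values and intervals under 0.1 CPM end at 0.1, classes under 20 cells are left out, and a dotted line separates the non-epithelial classes. *Nkx2-1* stood at 341 to 349 CPM in AT2 cells and at no more than 9.85 CPM in any non-epithelial class, *Etv5* was high in AT2, activated AT2 and cycling cells, and *Foxj1* was high in ciliated cells at 491 and 513 CPM.

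*Etv5* (ENSMUSG00000013089, chr16:22381309-22439719, minus strand) showed the steepest change within the alveolus. It was at 529 CPM (504 to 555) in WT-labelled and 588 CPM (580 to 595) in KO-labelled AT2 cells, where 89.8% and 93.8% of cells held a UMI. In Krt8+ cells it was at 25.4 CPM (16.3 to 37.8) and 28.4 CPM (23.3 to 34.3), and in AT1 cells at 20.6 CPM (9.87 to 37.8) and 23 CPM (16.6 to 31.2). These are log2 -4.38 and -4.37 for Krt8+ over AT2 and -4.68 and -4.67 for AT1 over AT2. The libraries thus gave nearly the same ratio with these gates. Under the alternatives, *Etv5* in the KO-labelled over the WT-labelled library ranged from -0.70 to 2.50 in Krt8+ cells. In AT1 cells it ranged from -0.0069 to 1.22. Krt8+, AT1 and goblet intervals overlapped, so their order was not resolved. Cells with both AT2 and AT1 markers were in between, at 342 CPM (311 to 376) in the KO-labelled library.

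Cycling alveolar cells kept most of their *Etv5*, at 338 CPM (264 to 427) and 435 CPM (406 to 466), which is log2 -0.65 (-1.01 to -0.30) and -0.43 (-0.53 to -0.33) against AT2. Outside the alveolus *Etv5* was low: 35.6 and 29.9 CPM in ciliated cells, 6.77 and 18.1 CPM in club cells, and 16.7 CPM or less in every non-epithelial class. The highest ordered class there was that of KO-labelled neuroendocrine cells, at 58.3 CPM from 19 UMIs in 38 cells. In the KO-labelled library, the low levels were set beside *Sftpc*, the surfactant gene of AT2 cells, which also gave 2514 CPM in endothelial cells of that library. There were 3.85 *Etv5* UMIs per 1000 *Sftpc* UMIs in AT2 cells, 3.98 (3.32 to 4.75) in club cells and 3.94 (2.84 to 5.33) in AT1 cells. The ratio was higher in Krt8+ cells, at 6.15 (5.04 to 7.42), in ciliated cells, at 12.8 (11.2 to 14.6), and in neuroendocrine cells, at 16 (9.62 to 25). The WT-labelled library, with less *Sftpc* outside AT2 cells, gave another picture: 4.8 (4.57 to 5.03) in AT2, 8.96 (5.74 to 13.3) in Krt8+, 11.1 (5.3 to 20.3) in AT1, 22.7 (10.9 to 41.8) in club and 97.8 (68.5 to 135) in ciliated cells. How far free RNA enters these low levels was not tested.

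*Cebpa* (ENSMUSG00000034957, chr7:35119293-35121928, plus strand), which acts in surfactant lipid production, followed *Etv5* among alveolar classes. It was at 98.3 CPM (87.8 to 110) and 138 CPM (134 to 142) in AT2 cells, at 26.5 CPM (17.1 to 39.1) and 24.2 CPM (19.5 to 29.7) in Krt8+ cells and at 12.3 CPM (4.53 to 26.9) and 8.78 CPM (5.02 to 14.3) in AT1 cells. AT1 cells thus had the lowest value of the ordered epithelial classes in both libraries, at log2 -2.99 (-4.45 to -1.86) and -3.97 (-4.78 to -3.27) against AT2. In the WT-labelled library, with 6 UMIs, the AT1 interval overlapped those of ciliated and Krt8+ cells, so that order was not resolved. Cycling alveolar cells were at 76.2 CPM (43.6 to 124) and 71.1 CPM (59.7 to 84.2), in the KO-labelled library below AT2 cells by log2 -0.96 (-1.21 to -0.71). Ciliated cells held 18.8 and 20.5 CPM and club cells 33.2 and 38.4 CPM. *Cebpa* was not confined to epithelium: immune cells, which include myeloid cells that use the factor, were at 50.4 and 74.4 CPM. The antisense gene *Gm45091* shares 51 exonic bases with *Cebpa* and had 0 and 9 UMIs in gated epithelial cells.

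*Gata6* (ENSMUSG00000005836, chr18:11052064-11085635, plus strand), a zinc finger factor of endoderm, mesoderm and the vessel wall, was highest in AT1 cells among the larger epithelial classes. Its level was 63.3 CPM in AT2 cells of each library, and in AT1 cells 132 CPM (101 to 168) and 160 CPM (142 to 180). The ratio was log2 1.06 and 1.34, and 0.73 and 0.87 under TMM scaling, which is within 2-fold. Club cells held the least of the larger epithelial classes, at 19.6 CPM (13.2 to 28.2) and 23.5 CPM (20 to 27.4), or log2 -1.69 and -1.43 against AT2 cells (-0.93 under TMM in the KO-labelled library). Cells outside the epithelium also carried it: mesothelial cells at 164 and 253 CPM and endothelial cells at 42.4 and 44.4 CPM. The opposite-strand gene *1010001N08Rik* shares 93 exonic bases with *Gata6* and had 70 and 788 UMIs in gated epithelial cells.

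*Klf5* (ENSMUSG00000005148, chr14:99298691-99315036, plus strand), a Krüppel-like factor of epithelial growth and alveolar repair, was higher in Krt8+ cells than in AT2 cells. It was at 221 CPM (192 to 253) and 190 CPM (176 to 204) there, against 85.3 CPM (75.5 to 96) and 81.7 CPM (78.9 to 84.7) in AT2 cells. The ratio was log2 1.38 (1.11 to 1.64) and 1.22 (1.10 to 1.33), and TMM scaling brought the second to 0.61, within 2-fold. AT1 cells, at 94.6 and 105 CPM, and club cells, at 89.4 and 93.8 CPM, were close to AT2 cells. Among ordered classes, KO-labelled basal cells alone were higher than Krt8+ cells, at 270 CPM (228 to 319). After thinning, 23.9% and 18.4% of Krt8+ cells and 8.9% and 7.36% of AT2 cells held a *Klf5* UMI.

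The airway factors *Sox2* (ENSMUSG00000074637, chr3:34650405-34652461, plus strand) and *Foxj1* (ENSMUSG00000034227, chr11:116330704-116335399, minus strand) were highest in airway classes. *Sox2* split alveolar from airway cells. *Foxj1* instead split ciliated cells from all others, and its KO-labelled club interval overlapped that of Krt8+ cells at 9.21 CPM. *Sox2* was at 94 CPM (76.1 to 115) and 108 CPM (101 to 116) in ciliated cells and at 40.6 CPM (31 to 52.3) and 48.7 CPM (43.7 to 54.2) in club cells. Every alveolar class of both libraries was at 4.11 CPM or less. KO-labelled basal cells led at 194 CPM (158 to 236), and the KO-labelled goblet gate was at 75.3 CPM (55.3 to 100), above club cells. The ciliated interval did not overlap that of club cells in either library.

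*Foxj1* was at 491 CPM (449 to 536) and 513 CPM (497 to 530) in ciliated cells, with UMIs in 91.5% and 92% of them. Far behind came the KO-labelled goblet gate, at 27.2 CPM. Club cells were at 16.3 CPM (10.4 to 24.2) and 12.8 CPM (10.2 to 15.7). Among them, 11 of 119 and 31 of 456 cells held a UMI, and 1 KO-labelled cell held 25. The other multiciliation regulators were also higher in ciliated cells. Of those listed, 6 of 6 in the WT-labelled and 9 of 9 in the KO-labelled library with enough UMIs were more than 2-fold higher in ciliated than in AT2 cells, beside 38.1% and 44.7% of all genes past 2-fold either way. The list medians were log2 5.27 and 4.32, and those of all genes 0.22 and 0.36. *Rfx2*, a cilia gene regulator, was at 136 and 154 CPM in ciliated cells and at 12.7 and 16.9 CPM in AT2 cells, and its relative *Rfx3* at 483 and 498 CPM against 61.1 and 53.7 CPM. *Trp73*, upstream in multiciliated fate, was at 103 and 91.7 CPM in ciliated cells, and *Myb* at 218 and 202 CPM.

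*Sox9* (ENSMUSG00000000567, chr11:112782224-112787760, plus strand), the factor of the embryonic distal tip, was sparse in every epithelial class. In Krt8+ cells it had 4 UMIs in 3 of 141 WT-labelled cells, or 4.23 CPM (1.15 to 10.8), and 45 UMIs in 26 of 549 KO-labelled cells, or 11.8 CPM (8.63 to 15.8). KO-labelled AT2 cells had 21 UMIs over 4979 cells, or 0.558 CPM (0.345 to 0.853), so Krt8+ over AT2 was log2 4.41 (3.63 to 5.23). A few cells carried much of it: 5 cells held 20 of the 45 UMIs. Of the 26 cells with *Sox9*, 18 also had *Klf5*, 4 had *Nkx2-1* and 1 had *Sox2*. Among all 549 KO-labelled Krt8+ cells, 56.3% had *Klf5*, 39.2% *Nkx2-1* and 1.82% *Sox2* without thinning. AT1 cells had 0 *Sox9* UMIs in both libraries, so that levels of 6.17 and 1.65 CPM (3 UMIs) could have been missed. The KO-labelled goblet gate had 16 UMIs in 8 of 35 cells, or 25.6 CPM (14.7 to 41.6), and 7 of those 8 cells also had *Sox2*. Ciliated cells were at 4.95 and 2.91 CPM and club cells at 3.39 and 0.29 CPM. In the WT-labelled library ciliated cells thus had the highest value, with an interval that overlapped that of Krt8+ cells. Mesenchymal cells were at 4.86 and 3.29 CPM. After thinning, 0.725% and 0.372% of Krt8+ cells held *Sox9*, near the value of a single UMI, so the thinned shares carry no order.

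Set side by side, classes that differed from AT2 cells did so in some of the factors and not in all. The factors are few, so these counts are given beside the shares of all genes and not read as a trait of the factors. In Krt8+ cells, 4 of 7 factors with at least 10 UMIs in the WT-labelled library were past 2-fold, where 31.7% of all genes tested were. They were *Nkx2-1*, *Cebpa* and *Etv5*, lower, and *Klf5*, higher. In the KO-labelled library it was 5 of 10, with *Sox9* added, beside 42.7% of all genes. The medians of the factors were log2 0.47 and 0.28, and those of all genes 0.30 and 0.59. In AT1 cells 3 of 7 (27.7% of all genes) and 4 of 10 (33.3%) were past 2-fold: *Etv5* and *Cebpa* were lower and *Gata6* higher in both libraries, and *Foxa2* was higher in the KO-labelled library at log2 1.08, or 0.61 under TMM scaling.

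In ciliated cells 5 of 9 (38.1%) and 6 of 10 (44.7%) were past 2-fold. *Foxj1* was higher by log2 8.63 (7.26 to 10.51) and 6.25 (6.07 to 6.44) and *Sox2* by 6.66 and 5.27, while *Cebpa* was at -2.39 and -2.75 and *Etv5* at -3.89 and -4.30. *Foxa2* was past 2-fold in the WT-labelled library at 1.56 and just within it in the KO-labelled library at 0.95. *Nkx2-1* straddled the limit at -0.96 and -1.10. *Sox9* was also past 2-fold in the KO-labelled library, higher by 2.38 (1.45 to 3.32) from 22 ciliated and 21 AT2 UMIs. In club cells 6 of 9 (30.9%) and 5 of 10 (32.3%) were past 2-fold: *Sox2* was higher, at 5.45 and 4.13, and *Nkx2-1*, *Gata6*, *Cebpa* and *Etv5* were lower, *Etv5* most of all at -6.29 and -5.02. The sixth in the WT-labelled library was *Foxj1*, higher by 3.71 (2.17 to 5.70), which was within 2-fold in the KO-labelled library at 0.92 (0.55 to 1.27). *Nkx2-1* in WT-labelled club cells came to -0.89 under TMM scaling. Because such ratios depend on the other RNAs of a class, their scale matters: TMM scaling shifted every ratio to AT2 by -0.60 in KO-labelled Krt8+ cells to 0.54 in WT-labelled club cells. In cycling cells 0 of 7 (21.8%) and 0 of 10 (18.6%) were past 2-fold. In activated AT2 cells it was 0 of 7 (11.3%) and, in the KO-labelled library, 2 of 10 (12.8%): *Sox2*, at 0.418 against 2.79 CPM, and *Foxj1*, at 2.26 against 6.75 CPM.

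**Figure D2:**
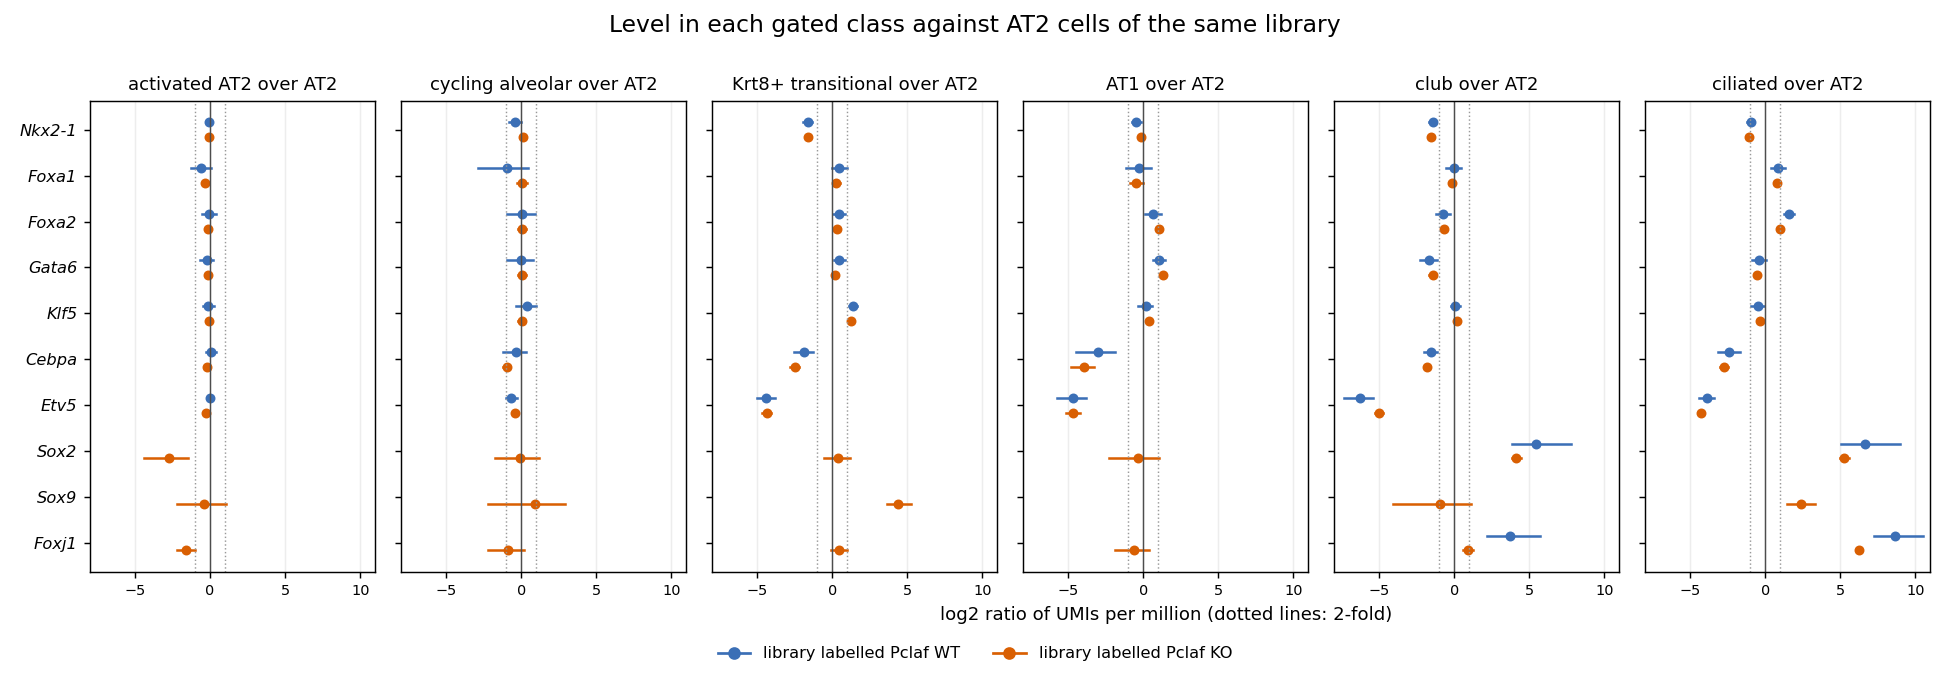
Log2 ratio of each factor's level in 6 classes to its level in AT2 cells of the same library, with exact 95% intervals, for factors with at least 10 UMIs over both sums. In Krt8+ cells *Etv5*, *Cebpa* and *Nkx2-1* lay below -1 and *Klf5* above 1 in both libraries, and in ciliated cells *Foxj1* (8.63 and 6.25) and *Sox2* (6.66 and 5.27) were the highest.

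Lists of related genes are given beside all genes tested, of which 31.7% in WT-labelled and 42.7% in KO-labelled Krt8+ cells were past 2-fold from AT2 cells, with medians of log2 0.30 and 0.59. Of 29 partner transcription factors of the lung epithelium, 4 were higher and 11 lower past 2-fold in WT-labelled Krt8+ cells among 25 with enough UMIs, and 6 higher and 13 lower among 29 in KO-labelled Krt8+ cells. Of all genes, 2679 were higher and 1340 lower among 12679, and 5513 higher and 1469 lower among 16348. The list medians were -0.59 and -0.60. *Id2*, an inhibitor of basic helix-loop-helix factors, was at 91 and 65.8 CPM in Krt8+ against 279 and 277 CPM in AT2 cells. *Foxp1*, a forkhead repressor, was at 271 and 208 CPM against 612 and 459 CPM, and the nuclear factor I gene *Nfia* at 175 and 151 CPM against 393 and 389 CPM. Its relative *Nfib* differed less, at 246 and 173 CPM against 326 and 263 CPM.

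Of the FGF-ERK feedback genes that accompany *Etv5*, 3 of 8 were lower and 0 higher past 2-fold in WT-labelled Krt8+ cells, and 4 of 9 lower and 1 higher in KO-labelled Krt8+ cells. Taken in both directions together, the share past 2-fold was near that of all genes. By direction it was not: of all genes, 1340 of 12679 and 1469 of 16348 were lower past 2-fold. The list medians were -0.86 and -0.88. The receptor gene *Fgfr2* was at 146 and 148 CPM there against 524 and 568 CPM in AT2 cells. The feedback inhibitors *Spry1*, at 31.8 and 30.2 CPM against 88.7 and 92.2 CPM, and *Spred2*, at 33.9 and 27.6 CPM against 75.4 and 87.4 CPM, were lower too, and *Spred1* was within 2-fold at 67.8 and 64.2 CPM against 123 and 118 CPM. In club cells 6 of 8 and 7 of 9 of these genes were lower and 1 and 2 higher, beside 30.9% and 32.3% of all genes past 2-fold either way, with *Spry1* at 21 and 20.7 CPM. Of 7 surfactant and lamellar body genes outside the gates, 5 were lower in Krt8+ cells of each library.

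Alveolar cells were also described along graded scores of the same markers that set the gates. The end bins therefore overlap the gated classes and are no separate support for them, although levels in bin and gate can differ. KO-labelled cells were put in 5 bins by their AT2 score minus their Krt8+ score, with 491, 93, 130, 335 and 6118 cells from the Krt8+ end to the AT2 end. *Etv5* was at 23.7, 75.3, 209, 344 and 574 CPM along these bins, so that its level was ordered without a break. *Nkx2-1* was at 107, 189, 324, 293 and 343 CPM, and was thus near its level at the AT2 end in the middle bin, where *Etv5* was at 209 CPM. *Cebpa* was at 24.6, 22.7, 68.7, 77.9 and 134 CPM. *Klf5* ran the other way, at 194, 156, 109, 98.4 and 79.9 CPM. In the WT-labelled library the 3 bins with at least 20 cells gave 19.9, 279 and 548 CPM of *Etv5*, 99.5, 257 and 355 CPM of *Nkx2-1* and 228, 55.8 and 83.7 CPM of *Klf5*. The bins are ranges of a score and not cell types, and called doublets were kept in them. In the KO-labelled bin of 335 cells, *Foxj1* was at 27.1 CPM and *Sox2* at 8.35 CPM. At the AT2 end they were at 4.62 and 1.89 CPM. The part of airway RNA or doublets in the order of the bins was not tested.

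Along the AT1 score minus the AT2 score, KO-labelled bins held 6466, 117, 72, 94 and 209 cells from the AT2 to the AT1 end. *Etv5* was at 558, 273, 129, 54.2 and 3.05 CPM and *Cebpa* at 131, 64.6, 35, 16.3 and 3.82 CPM. The last *Etv5* value, from 4 UMIs, has an interval of 0.832 to 7.82 CPM. The 75 WT-labelled cells of the same bin had 0 UMIs (0 to 10.4 CPM). Gated AT1 cells held 42 *Etv5* UMIs (23 CPM) in the KO-labelled and 10 (20.6 CPM) in the WT-labelled library. Most *Etv5* UMIs of the AT1 gate thus came from cells outside this bin. *Nkx2-1* was at 339, 400, 440, 291 and 301 CPM, highest in the middle bin. *Gata6* was at 62, 95.7, 129, 99.4 and 184 CPM, and *Foxa2* at 60.6, 76.8, 86.5, 65.1 and 154 CPM, both highest in the bin at the AT1 end.

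**Figure D3:**
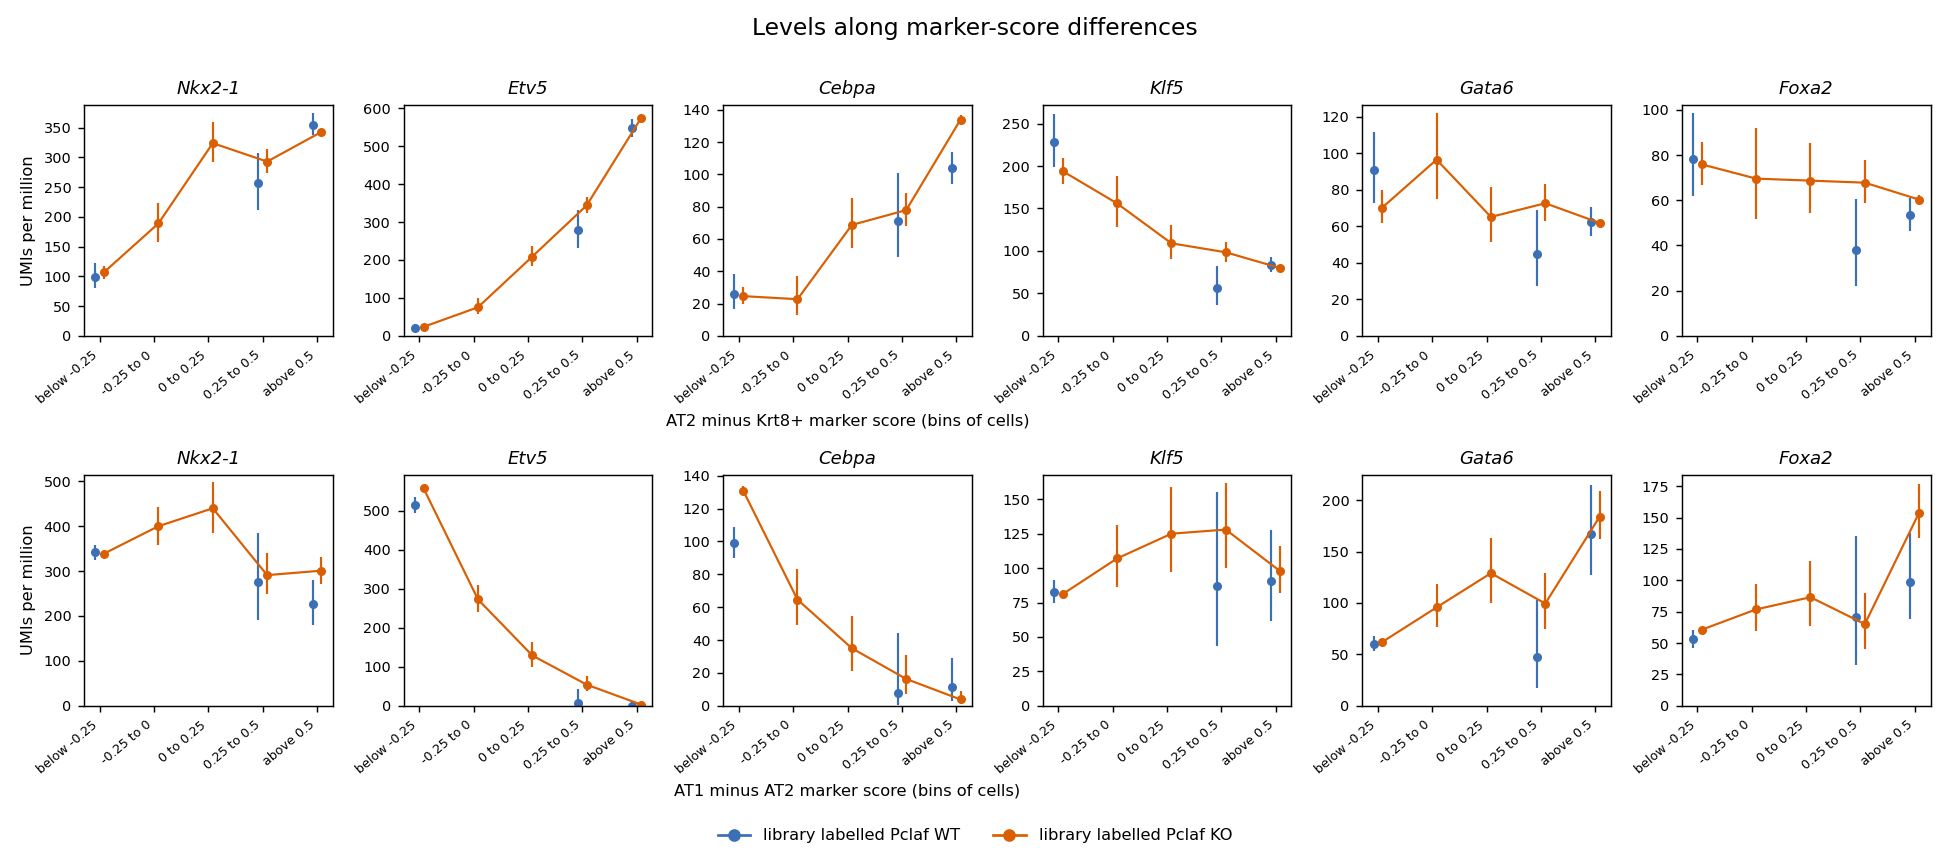
Level (CPM) of *Nkx2-1*, *Etv5*, *Cebpa*, *Klf5*, *Gata6* and *Foxa2* in bins of the AT2 minus Krt8+ score and of the AT1 minus AT2 score, with exact Poisson 95% intervals; a line joins the KO-labelled bins and bins under 20 cells are left out. *Etv5* stepped from 23.7 to 574 CPM toward the AT2 end of the first axis and from 558 to 3.05 CPM toward the AT1 end of the other.

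Between the libraries, most factors differed little within a class. In AT2 cells 2 of 10 factors were past 2-fold, *Foxj1* and *Sox2*, beside 17.0% of all genes tested. *Foxj1* was at 1.24 CPM (4 UMIs) in WT-labelled and 6.75 CPM (254 UMIs in 108 of 4979 cells, up to 12 in a cell) in KO-labelled AT2 cells, a log2 ratio of 2.44 (1.07 to 4.33). The ciliated gene *Tmem212* was at 1.55 and 15.4 CPM in the same cells, and 3 of 8 multiciliation regulators were also past 2-fold higher. Their part in the result was not tested. Without called doublets the *Foxj1* ratio was 0.63, and with classes taken from clusters it was -2.55. *Sox2* was at 0.931 CPM (3 UMIs) and 2.79 CPM (105 UMIs), and its ratio of 1.58 had an interval that reached -0.0024. It came to 0.67 without doublets and -2.63 from clusters.

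Within 2-fold, *Cebpa* differed most clearly. It was at 98.3 and 138 CPM in AT2 cells, a log2 ratio of 0.49 (0.32 to 0.66), and lay between 0.39 and 0.81 under the 14 alternatives run. Without the 21.9% of WT-labelled AT2 cells in non-epithelial clusters it was 0.40. *Cebpa* per 1000 *Sftpc* UMIs was 0.892 (0.796 to 0.995) and 0.905 (0.88 to 0.929) in the same cells, and *Sftpc* too was higher in the KO-labelled library. *Etv5* was higher by log2 0.15 (0.08 to 0.22) and turned to -0.055 without the cells in non-epithelial clusters. *Nkx2-1*, *Foxa1*, *Foxa2*, *Gata6* and *Klf5* had intervals that included 0 in AT2 cells, the widest of which, for *Foxa1*, ran from -0.23 to 0.32. The median of all genes was -0.18, and TMM scaling, which shifts these ratios by 0.18, put *Nkx2-1* at 0.15 (0.059 to 0.24) and *Foxa2* at 0.35 (0.12 to 0.57), both clear of 0, and *Klf5* at 0.12 (-0.058 to 0.30). None of 7 surfactant genes outside the gates was past 2-fold.

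In Krt8+ cells 2 of 10 factors were past 2-fold, beside 15.1% of all genes. *Sox9* had a ratio of 1.48 (0.027 to 3.42), from the 4 and 45 UMIs already named, and ranged from 1.10 to 1.91 over the alternatives that gave a value. *Foxj1* had 1 and 35 UMIs, a ratio of 3.12 (0.55 to 8.46), or 0.84 in cells with at least 500 genes. The other 8 factors had intervals that included 0, with *Nkx2-1* at 0.0044 (-0.30 to 0.32) and *Klf5* at -0.22 (-0.44 to 0.0086). *Etv5*, at 0.16, came to 2.50 with Krt8+ cells taken from clusters. In AT1 cells 0 of 7 were past 2-fold, beside 17.4% of all genes. *Foxa2* was higher in the KO-labelled library by 0.59 (0.11 to 1.10) and *Nkx2-1* by 0.29 (0.0036 to 0.58). With AT1 cells taken from clusters these came to 0.17 and 0.071.

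In cycling alveolar cells 1 of 7 factors was past 2-fold (*Foxa1*, 1.07 with an interval of -0.34 to 2.98), beside 22.0% of all genes. *Nkx2-1* and *Etv5* were higher by 0.49 (0.10 to 0.91) and 0.36 (0.013 to 0.73) and came to 0.036 and 0.13 without the 13 of 27 WT-labelled cells in non-epithelial clusters. In activated AT2 cells it was 1 of 8 (*Foxj1*, 1 and 27 UMIs), beside 13.9%. In club cells it was 1 of 9, beside 16.8%: *Etv5*, at 10 and 125 UMIs, with a ratio of 1.42 (0.49 to 2.52) and a range of 1.12 to 1.88 over the alternatives. *Sftpc* moved with it, at 298 and 4551 CPM, and its part in the *Etv5* difference was not tested. In ciliated cells 0 of 10 were past 2-fold, beside 13.1%. *Foxj1* differed by 0.065 (-0.071 to 0.20), and *Foxa2* was lower in the KO-labelled library by -0.45 (-0.69 to -0.20). With 1 library a genotype, neither a difference nor its absence can be ascribed to the genotype, since library and genotype cannot be told apart.

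**Figure D4:**
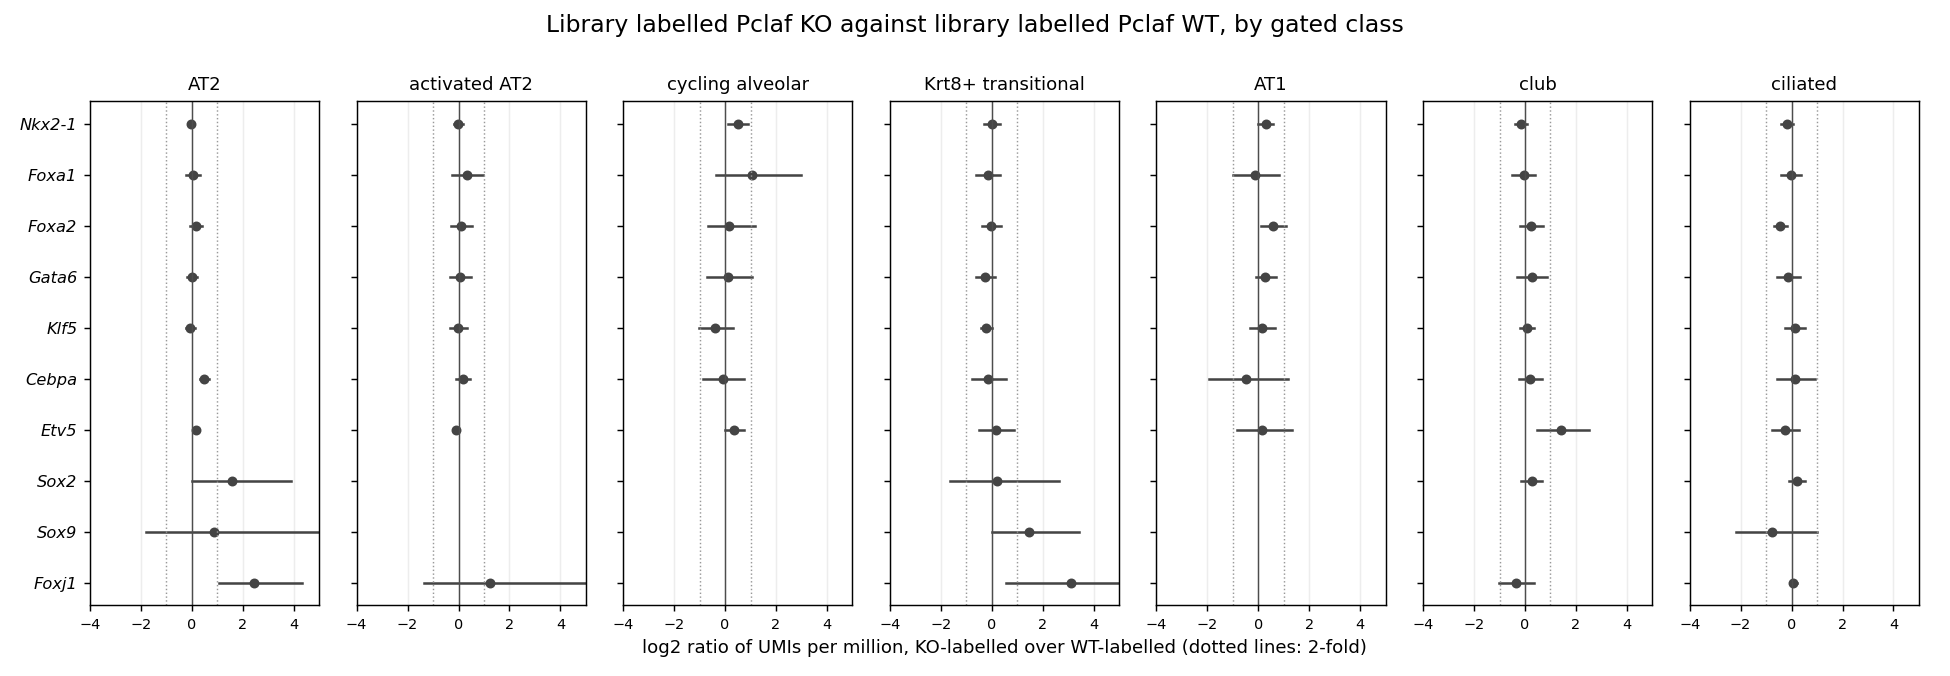
Log2 ratio of each factor's level in the KO-labelled to that in the WT-labelled library, within 7 classes, with exact 95% intervals cut at the axis ends, for factors with at least 10 UMIs over both sums. *Cebpa* in AT2 cells (0.49), *Etv5* in club cells (1.42) and *Foxa2* in ciliated cells (-0.45) were among the values with intervals clear of 0, while *Nkx2-1* and *Klf5* stayed near 0 in AT2 and Krt8+ cells.

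Detection of factors in the same cell was compared with the product of their single shares in cells thinned to 1000 UMIs. In WT-labelled AT2 cells 18.4% (15.2 to 21.9) held UMIs of both *Nkx2-1* and *Etv5*, and the product was 14%. In KO-labelled AT2 cells it was 13.8% (12.8 to 14.7) against 13%. Of the WT-labelled AT2 cells, 21.9% lay in non-epithelial clusters and 16% were called doublets. For KO-labelled AT2 cells these shares were 1.73% and 4.28%, and their part in the result was not tested. In ciliated cells *Nkx2-1* and *Foxj1* were found together in 5.26% and 5.38%, with products of 5.48% and 5.44%. *Sox2* and *Sox9* were found together in 0 thinned cells of the AT2, Krt8+, AT1 and ciliated classes. The products there were 0.0482% or less, so this depth cannot show whether the pair avoid each other. The exact binomial upper limit was 0.381% for KO-labelled ciliated cells. Without thinning, 2 of 153 (1.31%) and 8 of 968 (0.826%) ciliated cells held both, with products of 1.35% and 1.07%.

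The genes whose levels ran most like each factor were found by Pearson's correlation of log2(CPM + 1) over 23 points, each a class of at least 50 cells in a library, among 14420 genes. The points share libraries and differ in depth, so r describes likeness and carries no test. They include the immune, endothelial, mesenchymal and mesothelial classes, where *Nkx2-1* was at 9.85 CPM or less. A high r therefore also takes in the step between epithelial and other cells, and likeness within the epithelium was not measured apart. *Nkx2-1* was closest to the Iroquois factor *Irx2* (0.979), *Epn3* (0.978) and its own antisense neighbour *Gm26973* (0.977). *Foxa1* was closest to the epithelial factor *Grhl2* (0.978), the splicing regulator *Esrp1* (0.976) and *Elf3* (0.968), and *Klf5* to *Fgfbp1* (0.970), the desmosome gene *Dsp* (0.963) and *Erbb3* (0.962). *Foxj1* was closest to *Cdhr3* (0.979), *Lrriq1* (0.973) and *Efcab12* (0.972), and *Sox2* to *Aqp4* (0.957), *Slc16a12* (0.953) and *Adam28* (0.952).

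For *Etv5* the nearest were *Snhg11* (0.954), *Hc* (0.945, an AT2 gate marker) and *Bex2* (0.940). For *Cebpa* they were *Arg2* (0.926), *Adora2b* (0.917) and *Ramp1* (0.882), and for *Gata6* *Magi1* (0.951), *Lama5* (0.933) and *Bcr* (0.927). *Sox9* had no close match, with *Rpp38* at 0.730, *Gm47271* at 0.723 and *Maff* at 0.721. *Foxa2* was closest to *9030622O22Rik* (0.967), *Gm5148* (0.965) and *Prss8* (0.951). The first of these lies on the same strand at chr2:147944740-148040203, 2673 bases from *Foxa2*. It did not follow *Foxa2* everywhere: in club cells it was at 123 and 147 CPM, above its AT2 level of 50.6 and 65.5 CPM, where *Foxa2* was below its own. In KO-labelled basal cells it had 1 UMI. *Gm26973*, which shares no exonic base with *Nkx2-1*, was at 79.7 and 102 CPM in AT2 cells and at 27.5 and 29.7 CPM in Krt8+ cells.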

How the data were processed

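The authors deposited raw UMI counts of 10x 3' v3.1 libraries as 1 filtered matrix per genotype. The submitters' processing notes name Cell Ranger 3.1.0, STAR (version not given) and GRCm38, while the matrix headers name Cell Ranger 5.0.0. Cells with more than 200 and fewer than 5000 genes and under 20% mitochondrial UMIs were kept. A marker score is the mean over a list of scaled ln(1 + UMIs per 10000), capped at the 90th percentile of holding cells. A class needed a score of 0.35, a lead of 0.05 and 3 own markers, epithelial cells also 2 of 8 epithelial markers and 10 nuclear-RNA UMIs per 10000. Cycling cells needed 3 of 11 cycling markers, and activated AT2 cells an activation score of 0.5. These thresholds were set after the data had been seen, and the 10 factors, gene lists and markers were chosen with earlier results of these data known. Doublets called by Scrublet (7.76% and 2.7% of cells) were kept in the main values. They were 16% and 4.28% of AT2, 22.2% and 2.89% of ciliated and 25.9% and 1.66% of cycling cells.

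UMIs were summed per class and library and given per 1000000 UMIs of the class (CPM) with exact Poisson intervals. Ratios have exact conditional intervals, shares exact binomial (Clopper-Pearson) intervals, all at 95% and for counting error only. A gene was called past 2-fold with at least 10 UMIs over both sums, and a sum of 0 stood at a floor of 3 UMIs. Shares were also taken after thinning to 1000 UMIs a cell. With 1 library per genotype no p-value was computed. All 10 factors were measured in every class, but not every value is printed, so a class left unmentioned for a factor is not thereby unremarkable. Of each related list the 4 genes with the most UMIs in a class could be named, and the 3 genes most like each factor. Lists are described by counts and medians. Calculations used Python 3.11.15, numpy 2.4.6, scipy 1.17.1, pandas 2.3.3 and scanpy 1.11.5, with TMM factors from edgeR 4.0.16 as an alternative scaling, and were tested on simulated data. Positions are from GENCODE M21 on GRCm38.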

Additional observations from a re-analysis of the deposited data

Results flagged for a closer look

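*Foxa2*, the forkhead factor of surfactant and airway genes, differed between the libraries in opposite directions in AT1 and ciliated cells. The log2 ratio of the KO-labelled to the WT-labelled library was 0.59 (0.11 to 1.10) in AT1 cells, from 42 and 237 UMIs at 86.4 and 130 CPM. In ciliated cells it was -0.45 (-0.69 to -0.20), from 164 and 898 UMIs at 162 and 119 CPM. With classes taken from clusters the values were 0.17 and -0.49. Each genotype had 1 library, so the difference between these effects was not tested.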

How the results depend on the processing

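No paired analysis was possible because each genotype had 1 library. The 14 alternatives included 2 chosen after seeing the data (shared barcodes out, and gated cells in non-epithelial clusters out), and the cause of a change was not tested. Of 20 results that answer a comparison, 9 stayed within 1.5 times under the alternatives run. Of 61 ratios of single genes, 31 stayed inside their own interval. The depth limits *Sox9* and *Sox2* in alveolar cells, *Foxj1* outside ciliated cells and all WT-labelled cycling cells.

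The number of factors past 2-fold between libraries moved as follows. In AT2 cells it was 2 and came to 1 with no upper limit on genes or after thinning and to 0 without doublets. In activated AT2 cells it was 1 and came to 0 without doublets, from clusters, without cells near a cut, without cells in non-epithelial clusters and after thinning. In Krt8+ cells it was 2 and came to 1 with at least 500 genes and to 0 after thinning. In AT1 cells it was 0 and came to 1, *Etv5*, without cells near a cut and without cells in non-epithelial clusters. In cycling cells it was 1 and came to 2 with no upper limit on genes, and to 0 without doublets, with nuclear-poor barcodes kept, without cells in non-epithelial clusters and after thinning. In club cells it was 1 and came to 2 from clusters or with no minimum of UMIs and to 0 after thinning.

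Against AT2 cells of the WT-labelled library, activated cells went from 0 to 2 from clusters. Cycling cells went from 0 to 1 with no upper limit on genes, mitochondrial UMIs under 10%, without doublets, without cells near a cut, with the other denominator, after thinning and with TMM, and to 2 from clusters. Ciliated cells went from 5 to 8 after thinning. In the KO-labelled library, activated cells went from 2 to 1 with no upper limit on genes, without doublets and after thinning. Cycling cells went from 0 to 2 with no upper limit on genes, without doublets, from clusters and with TMM, and to 1 with mitochondrial UMIs under 10%, without shared barcodes, without cells in non-epithelial clusters and with the other denominator.

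Ratios between libraries with an interval clear of 0 that turned sign were *Etv5* in AT2 cells (-0.055 without cells in non-epithelial clusters) and, from clusters, *Foxj1* in AT2 cells (-2.55) and *Nkx2-1* (-0.15) and *Etv5* (-0.28) in cycling cells. Ratios with intervals that included 0 also changed sign, among them *Sox2* in AT2 cells (1.58 to -2.63) and *Klf5* in cycling cells (-0.39 to 0.76), both from clusters, and *Nkx2-1* (-0.035 to 0.15) and *Klf5* (-0.061 to 0.12) in AT2 cells with TMM. Krt8+ over AT2 ranged from -5.86 to -4.02 and -4.97 to -3.62 for *Etv5*, from -2.23 to -1.56 and -3.16 to -2.39 for *Cebpa*, and from 1.04 to 1.53 and 0.61 to 1.41 for *Klf5* in the WT-labelled and KO-labelled library.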

Other observations

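Barcodes with epithelial markers but fewer than 10 nuclear-RNA UMIs per 10000 were kept out of all classes. There were 205 in the WT-labelled and 850 in the KO-labelled library, and the nuclear RNA *Malat1* was at 187 and 218 CPM in them. They span several classes. With them kept, the gates gave 555 and 5234 AT2 cells in place of 530 and 4979. AT1 cells became 212 and 402 in place of 107 and 304, and club cells 136 and 638 in place of 119 and 456. Levels are set beside AT2 cells only, and the part of this class mix was not tested. Every factor was still found. *Nkx2-1* was at 133 CPM (100 to 173) and 107 CPM (96.7 to 117), below its AT2 level, and *Etv5* at 99.3 and 78.2 CPM. *Foxj1*, at 38.8 and 36.8 CPM, and *Sox2*, at 14.5 and 12.4 CPM, were above their AT2 levels. *Cebpa* was at 31.5 and 43.9 CPM and *Klf5* at 58.1 and 37.1 CPM.

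The levels of the factors over the 23 class and library points ran together to differing degrees. *Nkx2-1* and *Foxa1* had r = 0.93, *Foxa1* and *Klf5* 0.91, *Sox2* and *Foxj1* 0.79 and *Cebpa* and *Etv5* 0.74, whereas *Gata6* and *Cebpa* had -0.30. The points share libraries and differ in depth, so these are descriptions. Because non-epithelial classes are among the points, a high r does not mean that 2 factors run together across epithelial classes. *Nkx2-1* and *Foxa1*, for example, parted in Krt8+ cells.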
